A study of Mus musculus with 10 samples.

Results

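The regions described here are 26605 peaks of the histone mark H3K27me3 that CUT&RUN placed between genes and that had no counterpart in ChIP-seq. They were chosen from the 66242 broad peaks of the CUT&RUN list by 3 conditions. A peak had to share no base with any of the 41159 peaks of the ChIP-seq list, be narrower than 5000 bp, and lie outside the span of each of the 32968 genes that the RNA count table places on 1 chromosome and 1 strand. The chosen peaks, called CUT&RUN-only intergenic peaks below, made up 40.2% of the CUT&RUN list and covered 24.5 Mb, or 28.3% of its covered bases. Overlap, width and gene position chose them, so those properties are described and not tested.

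All samples came from E14 mouse embryonic stem cells engineered so that the nucleolar protein NPM1 can be degraded (NPM1AID), synchronized to G1 and then released, and cultured with LIF and with inhibitors of MEK1/2 (PD0325901) and GSK3 (CHIR99021). The CUT&RUN peaks came from 1 control sample at 12 h, the ChIP-seq peaks from 1 sample without auxin at 6 h, and both used the same H3K27me3 antibody product. RNA was counted at 12 h in 2 untreated libraries and in 2 treated with auxin, the plant hormone that starts the destruction of a degron-tagged protein. The RNA file headers name a single clone. Degradation removes protein and not RNA, so Npm1 counts are no check of the auxin labels. No cells lacking the degron received auxin in these samples, so auxin itself and loss of NPM1 cannot be told apart. Assay and time both differed between the peak lists and likewise cannot be told apart. The CUT&RUN samples with auxin, with and without a PRC2 inhibitor, the IgG sample and the ChIP-seq input were not analysed here, so the response of these peaks to auxin is not described.

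H3K27me3 is set by Polycomb repressive complex 2 (PRC2), whose catalytic subunit is EZH2 or EZH1, and the product is bound by the EED subunit of the same complex, which lets the mark spread from a site of recruitment. In embryonic stem cells the mark is best known over CpG-rich promoters of silent developmental regulators, and it also lies at lower density across large stretches between genes. ChIP-seq sequences fragments of fixed, sheared chromatin pulled down by the antibody, whereas CUT&RUN sequences fragments that a tethered nuclease releases from unfixed nuclei.

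Some of the CUT&RUN-only intergenic peaks lay at an annotated start of transcription. Choosing peaks outside gene spans had already removed any that crossed the start of a placed count-table gene. The share at starts was thus partly fixed by the choice. The share to be had from the intergenic bases near such starts was not computed, so it is not read as low or high. Of the 32851 promoter windows in the RefSeq table (GRCm38.p6, the assembly also called mm10), taken here as the 250 bases before a start, 460 windows of 409 genes shared a base with such a peak, and 409 of the peaks (1.54%) were involved. The windows belonged to long noncoding RNAs (lncRNAs) in 372 cases and to protein-coding genes in 88. The 5 windows below show the range of sequence under these peaks, with every CG dinucleotide in capitals. They are Hoxd13 from the Hox list, the 3 genes of such windows whose RNA changed with auxin (Clip4, Kif26b and Nt5dc2), and the lncRNA Gm52237, which had the highest peak fold enrichment among windows lying entirely under a peak. The last 4 were chosen after their values were seen.
Hoxd13 (chr2:74667975-74668224, plus strand): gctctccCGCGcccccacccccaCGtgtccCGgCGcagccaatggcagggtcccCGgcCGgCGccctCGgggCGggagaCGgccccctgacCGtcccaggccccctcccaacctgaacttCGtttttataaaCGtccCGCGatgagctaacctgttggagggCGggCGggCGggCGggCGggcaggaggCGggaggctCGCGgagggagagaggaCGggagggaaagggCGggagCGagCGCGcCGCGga
Clip4 (chr17:71769441-71769690, plus strand): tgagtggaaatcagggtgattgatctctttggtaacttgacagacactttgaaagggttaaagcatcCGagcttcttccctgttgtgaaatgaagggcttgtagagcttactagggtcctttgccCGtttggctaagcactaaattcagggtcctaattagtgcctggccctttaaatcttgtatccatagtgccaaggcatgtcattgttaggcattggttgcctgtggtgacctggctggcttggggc
Kif26b (chr1:178528875-178529124, plus strand): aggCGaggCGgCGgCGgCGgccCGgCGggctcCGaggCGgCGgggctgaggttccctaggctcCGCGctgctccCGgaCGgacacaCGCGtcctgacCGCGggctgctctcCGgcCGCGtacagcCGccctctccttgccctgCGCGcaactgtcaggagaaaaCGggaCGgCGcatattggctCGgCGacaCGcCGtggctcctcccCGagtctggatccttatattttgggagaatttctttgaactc
Nt5dc2 (chr14:31134486-31134735, plus strand): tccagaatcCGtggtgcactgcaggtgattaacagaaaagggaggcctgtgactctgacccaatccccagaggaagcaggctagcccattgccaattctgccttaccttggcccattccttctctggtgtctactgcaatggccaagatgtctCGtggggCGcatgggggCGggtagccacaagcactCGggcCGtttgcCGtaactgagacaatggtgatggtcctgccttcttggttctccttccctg
Gm52237 (chr16:31241866-31242115, minus strand): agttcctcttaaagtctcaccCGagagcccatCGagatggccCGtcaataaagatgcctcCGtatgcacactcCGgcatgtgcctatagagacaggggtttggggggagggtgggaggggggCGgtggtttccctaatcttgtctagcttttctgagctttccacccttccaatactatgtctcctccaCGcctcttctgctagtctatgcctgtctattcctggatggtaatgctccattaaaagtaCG

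The Hoxd13 and Kif26b windows were CpG-rich, with 31 and 32 CG dinucleotides and observed over expected CpG ratios of 0.901 and 1.09. The Clip4 window held 2 (ratio 0.148), the Nt5dc2 window 7 (0.352) and the Gm52237 window 8 (0.474). Sparse windows were the more common kind. An observed over expected ratio of at least 0.6 was reached by 7.61% of windows with a CUT&RUN-only intergenic peak, against 25.9% of the 15204 windows outside gene spans with no peak of either list. Much of that gap went with the type of gene. Among lncRNA starts the share was 5.65% of 372 windows with such a peak and 6.92% of 6139 windows without any peak. Among protein-coding starts it was 15.9% of 88 and 38.7% of 9065. Intergenic CUT&RUN peaks under 5000 bp that did overlap a ChIP-seq peak, called shared intergenic peaks below, gave 3.85% of 156 lncRNA windows and 33.3% of 48 protein-coding windows. Other CUT&RUN peaks under 5000 bp, in windows inside or outside gene spans without a CUT&RUN-only intergenic peak, gave shares not split by gene type. A ratio of at least 0.6 was reached by 17.5% of 945 windows with a CUT&RUN-only peak that overlapped a gene. It was reached by 20.6% of 988 windows with a peak that overlapped a ChIP-seq peak, genic or intergenic. Windows with a CUT&RUN-only intergenic peak could themselves reach into a gene span, whereas the windows without a peak could not. The choice also left out peaks that crossed the start of a placed gene, and its part in these CpG shares was not tested. All windows come from 1 peak list, so these shares carry no test.

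**Figure D1:**
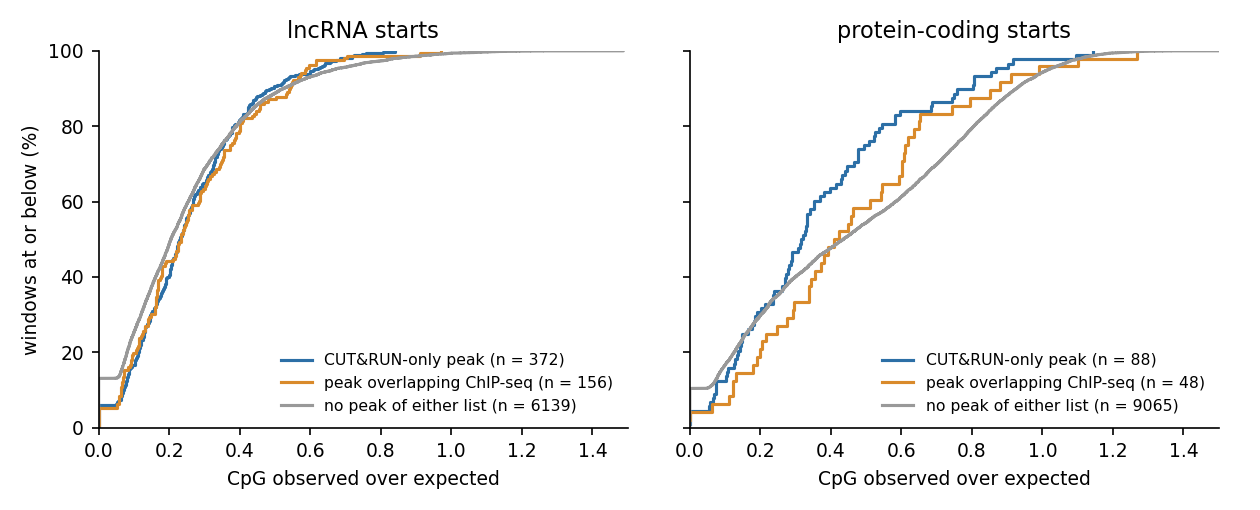
Cumulative share of RefSeq promoter windows (vertical axis, %) by observed over expected CpG ratio in the 250 bases before the start (horizontal axis), for lncRNA starts on the left and protein-coding starts on the right. The 3 lines nearly coincide for lncRNAs, while among protein-coding starts the 88 windows with a CUT&RUN-only intergenic peak hold fewer CpG-rich sequences than the 9065 windows without a peak.

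3 short motifs were searched on both strands of the same windows. CGCG, which reads the same on both strands, occurred in 10.9% of windows with a CUT&RUN-only intergenic peak, in 25.5% of windows outside gene spans with no peak of either list and in 33.8% of all windows. GAGAGA occurred in 22.6%, 20.4% and 20.2% in the same order, and the repeat CACACA in 25.2%, 18.7% and 17.9%. By gene type, CGCG stood in 8.06% of the lncRNA windows with such a peak and in 8.32% of the lncRNA windows without a peak, and in 22.7% and 37.2% of the protein-coding windows. CACACA stood in 25.0% of the lncRNA windows with such a peak and 23.4% of those without a peak. Among protein-coding windows these shares were 26.1% and 15.5%. GAGAGA gave 22.8% and 23.3% of the lncRNA windows, and 21.6% and 18.5% of the protein-coding windows. A match says only that these letters are present.

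Of 1005 miRNA hairpins in the RefSeq table, 2 lay under a CUT&RUN-only intergenic peak and 49 lay within 5 kb of one. The count table places 655 microRNA genes, and peaks over the span of a placed gene were left out. The count of 2 was thus largely fixed by the choice, and no share of bases was computed beside it. miRNAs act by pairing the seed, bases 2 to 8 of the mature strand, with target transcripts. Mir7233 (chr6:127788084-127788143, minus strand) lay under a peak at chr6:127787912-127789057, and Mir7214 (chr17:27317035-27317095, minus strand) under a peak at chr17:27316061-27318186. Their mature 3p strands are shown with the seed in capitals, and the 2 seeds differ.
miR-7233-3p: uAUUGUCUgccuuuaggucuac
miR-7214-3p: cUCAGUCCugaccccuugagcgca

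The CUT&RUN-only intergenic peaks were narrow, and their median fold enrichment and −log10 q were below those of every other class of the list. Their median width was 711 bp (quartiles 398 and 1178, range 218 to 4988), against 760 bp for the 24715 CUT&RUN-only peaks under 5000 bp that overlapped a gene. For the 5807 shared intergenic peaks the median was 1454 bp wide. The median fold enrichment over background, as the authors' peak caller gave it, was 3.00 (range 2.27 to 5.26) for the CUT&RUN-only intergenic peaks, 3.02 for the genic CUT&RUN-only peaks and 3.13 for the shared intergenic peaks. The median −log10 q was 1.35, 1.38 and 1.61 in the same order. Peaks under 5000 bp that overlapped both a gene and a ChIP-seq peak had medians of 3.16 and 1.71. Peaks of 5000 bp or more had medians of 3.37 and 2.03. A −log10 q of at least 2 was reached by 3041 of the CUT&RUN-only intergenic peaks (11.4%) and by 22.5% of the shared intergenic peaks. The genic CUT&RUN-only peaks gave 13.1%, the genic peaks overlapping a ChIP-seq peak 29.7%, and the peaks of 5000 bp or more 52.7%. A −log10 q of at least 5 was reached by 6 of the CUT&RUN-only intergenic peaks. Their upper quartile was 1.68, and the smallest value in the list was 1.00.

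At equal width the fold enrichments came closer. Among peaks under 500 bp the medians were 2.97 for 9190 CUT&RUN-only intergenic peaks and 2.99 for 726 shared intergenic peaks. Between 2000 and 5000 bp they were 3.15 for 2207 and 3.23 for 2044. The share of intergenic CUT&RUN peaks with no ChIP-seq peak fell steeply with width. It was 92.7% under 500 bp, 88.0% from 500 to 1000 bp, 77.7% from 1000 to 2000 bp and 51.9% from 2000 to 5000 bp. Among the 499 intergenic CUT&RUN peaks of 5000 bp or more, which the width condition left out, it was 20.4%. A wide peak has more bases with which to overlap a ChIP-seq peak, and how much of the trend this gives was not tested.

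**Figure D2:**
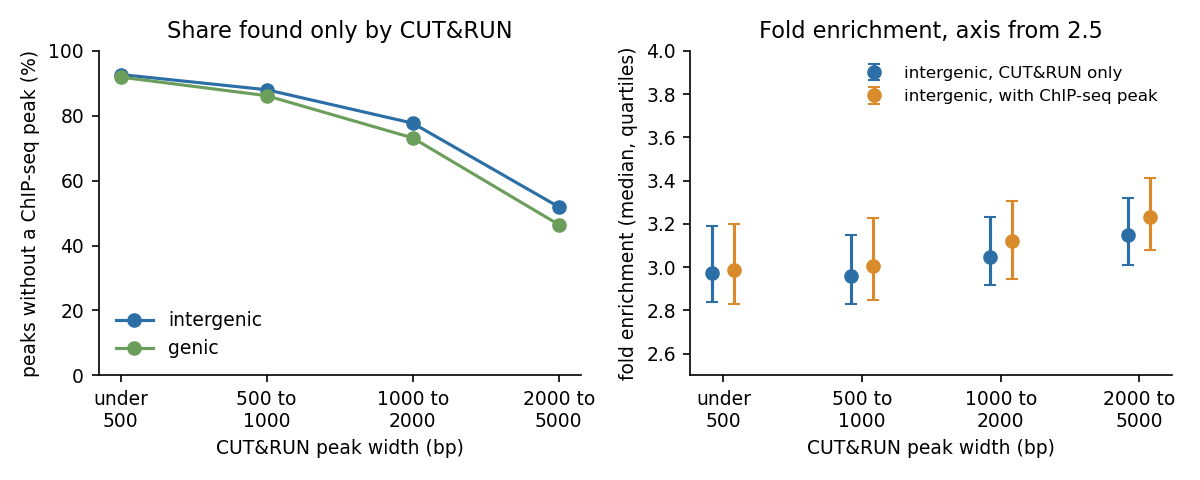
Left, share of CUT&RUN peaks without an overlapping ChIP-seq peak (%) by width class, for intergenic and genic peaks; right, median fold enrichment with quartiles (vertical axis starting at 2.5) by width class for intergenic peaks with and without a ChIP-seq peak. The intergenic share runs from 92.7% in the narrowest class to 51.9% in the widest, and the quartile ranges of fold enrichment overlap in each class.

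The peaks with the highest fold enrichment were short and, with 1 exception, lay within 50 kb of the 5′ end of a gene. Distances of named peaks, here and in the next paragraph, run from the edge of the peak to the nearest 5′ end. The highest, 5.26, was a 578 bp peak at chr9:104353065-104353642 (mm10), 15.3 kb from Acpp, which encodes prostatic acid phosphatase. A 1000 bp peak at chr5:120371343-120372342 reached 5.24 and lay 59.4 kb from RP24-351J24.2. A 348 bp peak at chr11:6068160-6068507 reached 5.22, 1.80 kb from Camk2b, a subunit of calcium/calmodulin-dependent kinase II. A 240 bp peak at chr10:69400541-69400780 reached 5.12, 47.6 kb from the cell cycle kinase gene Cdk1, and a 297 bp peak at chr10:128962117-128962413 reached 4.94, 1.13 kb from Mettl7b. None of the 5 lay under a RefSeq gene.

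The widest peaks had ordinary enrichment. The widest, 4988 bp at chr1:167873842-167878829, lay 185 kb from the 5′ end of Lmx1a and had a fold enrichment of 3.02. Lmx1a is a LIM homeobox transcription factor gene. The next, 4961 bp at chr16:93014024-93018984, lay between Runx1, a haematopoietic transcription factor gene, and AC124326.1 (3.24). The others were 4953 bp at chr7:82323333-82328285, 7.41 kb from Adamtsl3 (3.38), 4945 bp at chr1:190990852-190995796, 11.6 kb from Vash2 (3.06), and 4936 bp at chr7:136496503-136501438, 7.90 kb from Gm24444 (3.18). The 5 intergenic CUT&RUN-only peaks just past the width limit measured 5005, 5005, 5007, 5015 and 5024 bp, with fold enrichments from 3.09 to 3.35.

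Although none touched a ChIP-seq peak, many of these peaks lay close to one. The midpoints of 8386 (31.5%) were within 5 kb of a ChIP-seq peak, where 7.38% of the intergenic bases outside ChIP-seq peaks lie, a ratio of 4.27. Within 1 kb the shares were 6.15% and 2.13%, and within 50 kb 72.9% and 27.3%. The genic CUT&RUN-only peaks gave 32.8% within 5 kb. The 8386 near peaks were 728 bp wide at the median, with a median fold enrichment of 3.03. For the 7210 peaks over 50 kb from any ChIP-seq peak these medians were 633 bp and 2.98.

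They also lay close to other CUT&RUN peaks. The median distance to the next CUT&RUN peak was 2958 bp, against 1611 bp for the shared intergenic peaks. In all, 13185 (49.6%) had no other CUT&RUN peak within 3000 bp, 11198 (42.1%) lay in runs of 2 to 4 peaks joined by gaps of up to 3000 bp, and 2222 (8.35%) in runs of 5 or more. Runs that held a peak overlapping a ChIP-seq peak took in 4658 of them (17.5%). The longest runs made only of CUT&RUN-only intergenic peaks had 7. The widest of these runs spanned 21597 bp at chr2:179088219-179109815.

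Per intergenic megabase, the peaks were spread unevenly over the chromosomes. The density was 18.9 per intergenic Mb over the 19 autosomes. Chromosomes 11 (25.4) and 9 (25.1) were the densest, and chromosome 14 (6.66) was the sparsest autosome. The X chromosome held 122 of the peaks, or 1.02 per intergenic Mb. Both lists were sparse there, with 236 CUT&RUN peaks and 49 ChIP-seq peaks of any kind. Copy number, mappability and depth along the X were not tested. The shared intergenic peaks ranged from 1.18 per Mb on chromosome 3 to 7.98 on chromosome 11 among the autosomes, and stood at 0.0251 on the X.

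**Figure D3:**
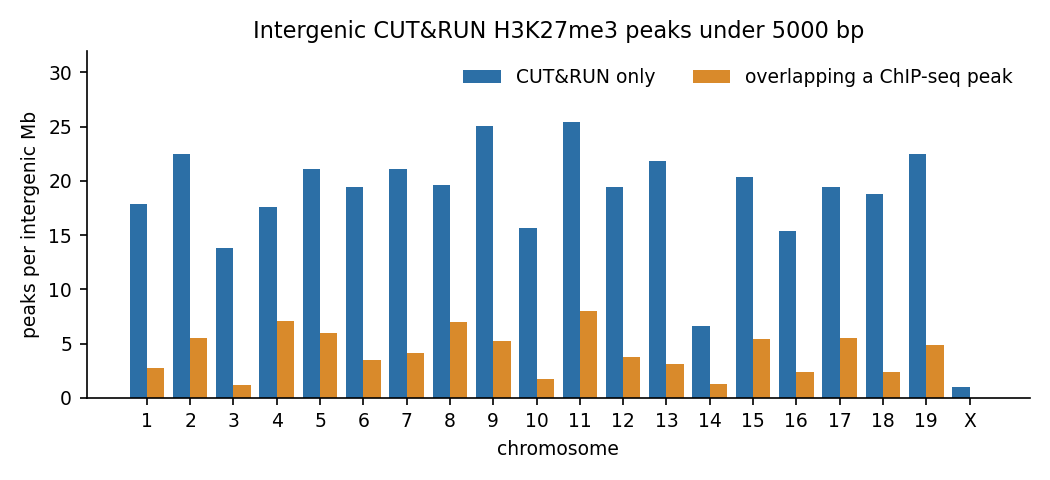
Number of intergenic CUT&RUN peaks under 5000 bp per intergenic Mb (vertical axis) on each chromosome (horizontal axis), for peaks without a ChIP-seq peak and for those overlapping one. Chromosomes 11 and 9 stand highest at 25.4 and 25.1, chromosome 14 is at 6.66 and the X chromosome at 1.02.

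Long gaps between genes held few of these peaks for their length. Gaps under 0.05 Mb held 22.1 per Mb, gaps of 0.05 to 0.2 Mb 25.2, gaps of 0.2 to 1 Mb 14.7, and the 129 gaps of at least 1 Mb 3.36. Of those 129 gaps, 45 held none. The longest empty gap, 2.36 Mb on chromosome 14, lies between Olfm4, a marker of intestinal stem cells, and Gm22891. Of all 24380 gaps, 6464 held at least 1 of the peaks.

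A few gaps were crowded. The gap between Cdh26, a cadherin gene, and 4930591A17Rik on chromosome 2 held 110 CUT&RUN-only intergenic peaks in 0.928 Mb, with 25 shared intergenic peaks among them. The gap between n-R5s30 and Rbfox1, a neuronal splicing factor gene, on chromosome 16 held 81 in 1.49 Mb (17 shared). The gap between Gm6569 and Bai1, an adhesion receptor gene, on chromosome 15 held 78 in 0.676 Mb (20 shared). The gap between Mki67, the proliferation marker Ki-67, and Gm24444 on chromosome 7 held 71 in 0.793 Mb with only 1 shared peak. The gap between Maf, a leucine zipper transcription factor gene, and Dynlrb2 on chromosome 8 held 67 in 0.797 Mb (18 shared). These gaps differed in how many ChIP-seq-supported peaks accompanied the others, from 1 beside Mki67 to 25 beside Cdh26.

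The peaks lay farther from genes than the shared intergenic peaks did. The median distance from the edge of a peak to the nearest gene span was 27.3 kb, against 14.9 kb. Midpoints up to 5 kb upstream of a gene made up 7.63% of the CUT&RUN-only intergenic peaks and 13.9% of the shared intergenic peaks, and 6.57% of intergenic bases lie there. Between 5 and 50 kb from a gene the shares were 52.4%, 56.6% and 39.3% in the same order. Between 50 and 500 kb they were 33.9%, 21.1% and 45.3%, and beyond 500 kb 0.346%, 0.0861% and 3.37%. Relative to bases, the CUT&RUN-only intergenic peaks were most frequent 5 to 50 kb from a gene and close to the share of bases just upstream. A peak wholly outside gene spans cannot have its midpoint right at a gene edge, where bases were still counted. The shares of both peak sets within 5 kb of a gene are lowered by this, by an amount not computed.

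**Figure D4:**
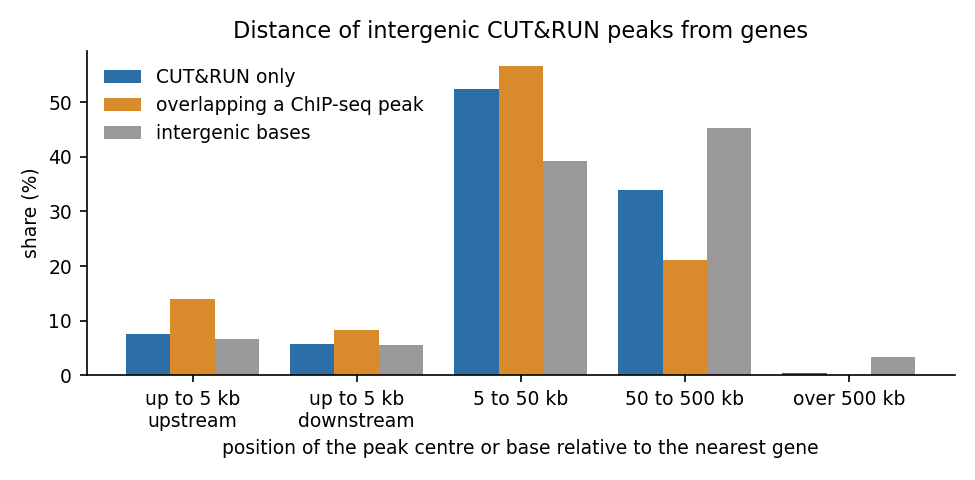
Share (%) of CUT&RUN-only intergenic peaks, shared intergenic peaks and intergenic bases in 5 classes of distance from the nearest gene. The 5 to 50 kb class holds 52.4% of the CUT&RUN-only peaks and 39.3% of the bases, and the class up to 5 kb upstream holds 7.63% and 6.57%.

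Intergenic here means outside the genes of the count table, which is not the only annotation. Of the CUT&RUN-only intergenic peaks, 6275 (23.6%) overlapped a RefSeq gene, where 15.4% of the same intergenic bases and 25.6% of the shared intergenic peaks do. LncRNAs accounted for 4365 peaks and protein-coding genes for 1597, a peak under both counting in each, and 4828 lay under a RefSeq gene whose name the count table does not hold. The immunoglobulin heavy chain locus Igh on chromosome 12 held the most, 29. It was followed by the lncRNAs Gm19859 (19), E430016F16Rik and Gm41414 (17 each). The protein-coding genes with the most were Dchs2, a protocadherin-like gene (15), and Frmpd2 (14).

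Gene families differed in how often a CUT&RUN-only intergenic peak lay within 5 kb upstream of the 5′ end. Over all placed genes 2092 had one (6.35%), of which 1850 had 1 peak, 237 had 2 and 5 had 3. Symbols of keratins and keratin-associated proteins, the structural proteins of skin and hair, gave 25 of 105 (23.8%). Potassium channel symbols gave 20 of 93 (21.5%), interleukin symbols, including receptors, 17 of 86 (19.8%), and protocadherins 6 of 36 (16.7%). At the other end were vomeronasal receptors with 1 of 327 (0.306%), microRNA genes with 13 of 655 (1.98%), olfactory receptors with 36 of 1106 (3.25%) and zinc finger genes named Zfp with 12 of 363 (3.31%). Shared intergenic peaks lay in the same window of 2.77% of all placed genes. They did so for 12.4% of keratins, 22.6% of potassium channels, 4.65% of interleukins and 2.78% of protocadherins. The shares were 0% of vomeronasal receptors, 0.916% of microRNA genes, 1.18% of olfactory receptors and 2.75% of Zfp genes. Members of these families often lie in clusters and can share a peak, so genes are not independent here, and no test was made.

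By function, the peaks were found upstream of 21 of 121 developmental transcription factor genes (17.4%), beside 6.35% of all placed genes. Among the 21 were Foxa1, Foxa2, Isl1, Pax7, Otx2 and Nkx2-5. They lay upstream of 7 of 32 BMP and Nodal pathway genes, 8 of 44 Wnt and Frizzled genes and 7 of 35 imprinted genes. Of 38 Hox genes, which pattern the body axis, Hoxb1 and Hoxd13 had one. None of 11 PRC2 genes and none of 20 pluripotency genes had one, while 4 of 22 genes of Polycomb repressive complex 1 (PRC1) did, namely Cbx2, Pcgf5, Scmh1 and Yaf2. Lists of 11 and 20 genes are too short for their counts to be read against 6.35%. Shared intergenic peaks lay upstream of 29 of the developmental, 2 BMP and Nodal, 6 Wnt and Frizzled, 2 imprinted and 2 Hox genes. They also lay upstream of 0 PRC2, 1 pluripotency and 3 PRC1 genes, beside 2.77% of all placed genes. The genes with the most peaks for which theirs was the nearest 5′ end within 50 kb were Gm23153 (17), followed by several with 14, among them Irx1, a homeobox gene. Gpr6 and Sox14, a gene of the Sox family, were nearest to 13 each.

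The RNA libraries held 13353446 to 16046290 counts. The 8 stem cell markers were high in all 4 libraries (Pou5f1 at 1119 to 1385 CPM, counts scaled to the library total), and the 8 fibroblast markers, which would mark feeder cells, were at most 4.28 CPM. Summed, the fibroblast markers stood at 8.57 and 8.27 CPM without auxin and 11.7 and 11.3 CPM with it, with Lum and Postn at or near 0. Pdgfra was the 1 called higher of 4 tested. The stem cell markers summed to 6994 and 6919 CPM without auxin and 6725 and 6600 CPM with it, with Pou5f1, Sox2, Esrrb and Zfp42 lower and Nanog higher. The part of these shifts in the results below was not tested. Genes with a CUT&RUN-only intergenic peak within 5 kb upstream were mostly weakly expressed. Of the 2092, 926 (44.3%) had no count without auxin, against 44.0% of all placed genes, and 672 passed the filter on low counts. Among tested genes, the median level per kb of exon without auxin was 1.39 and 1.48 CPM per kb in the 2 libraries, against 6.34 and 6.38 over all tested placed genes.

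With auxin, 116 of these 672 genes rose (17.3%) and 52 fell (7.74%), with 504 not called, in edgeR's quasi-likelihood test with Benjamini-Hochberg adjustment over all 13522 genes. The background was 13.0% higher and 14.5% lower (1759 and 1964 genes). The median log2 fold change was 0.13, and 0.01 over all placed genes tested. The 672 genes are those that passed the filter, not all 2092. Genes with no CUT&RUN peak in the same window gave 1458 higher and 1851 lower of 11824 (12.3% and 15.7%). Genes with a shared intergenic peak there gave 74 higher and 23 lower of 391 (18.9% and 5.88%). A gene can be in both sets, and no test compared them. DESeq2 called 50 higher and 35 lower of the 557 such genes to which it gave an adjusted p (8.98% and 6.28%), beside 7.10% and 11.7% of all 12401. The count of increases was 74 without replicate 1 of the untreated libraries and 76 without replicate 2 of the auxin libraries. No label says that the replicates were separate cultures, so the p-values speak only of the spread among these 4 libraries, part of which may be technical.

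The split went with other properties of the genes. Of the 672, 387 also had a ChIP-seq peak somewhere between 5 kb upstream and the 3′ end, and of those 75 rose and 25 fell (19.4% and 6.46%, median log2 fold change 0.20). Of the 285 without one, 41 rose and 27 fell (14.4% and 9.47%, median 0.07). Expression level moved with it too. Tested genes were split into 4 equal bins by mean level over the 4 libraries, a division added after the data were seen. The lowest bin held 307 of the 672 genes, of which 15.3% rose and 2.61% fell, against 12.1% and 3.61% of all genes of that bin. In the second bin 21.0% rose and 7.14% fell, against 16.2% and 5.89%. In the third bin the values were 15.4% and 12.1%, against 13.6% and 12.0%. In the highest bin, with 50 of the genes, 16.0% rose and 34.0% fell, against 10.1% and 36.6%. Within each bin the share that fell thus differed from that of all genes by less than it did before the split, and the share that rose stayed above it. The part of expression level in the result was not otherwise tested.

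The largest increases were in genes of the aryl hydrocarbon receptor pathway, which senses planar aromatic compounds and induces enzymes that oxidise them. Cyp1a1, a cytochrome P450 and the classical target of the receptor (chr9:57697613-57703822, plus strand), stood at 0.492 and 0.475 CPM without auxin and at 129 and 109 CPM with it. That is a log2 fold change of 7.91 ± 0.18 (SE; edgeR adjusted p = 5.28e-10), and the libraries of each group lay far from those of the other. The peak upstream of Cyp1a1, 1386 bp wide with a fold enrichment of 2.95, ended 3834 bp before the gene. Ahrr, which encodes the repressor of the receptor, went from 0.211 and 0.0678 CPM to 5.24 and 5.23 CPM (log2 fold change 5.16 ± 0.41). Cyp1b1, another P450 of this pathway, went from 0.632 and 0.542 CPM to 23.6 and 16.8 CPM (5.08 ± 0.28). Their adjusted p-values were 9.62e-06 and 6.67e-07 by edgeR. The untreated counts of Ahrr were few, and its log2 fold change was 6.10 without replicate 1 of the untreated libraries and 4.57 without replicate 2. Each of these 3 genes had 1 CUT&RUN-only intergenic peak upstream, and each also had at least 1 ChIP-seq peak between 5 kb upstream and its 3′ end.

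Genes of patterning and tissue identity made up part of the other large increases. Msx1, a homeobox gene of craniofacial and limb development, went from 1.40 and 1.76 CPM to 7.30 and 8.26 CPM (log2 fold change 2.29 ± 0.22, edgeR adjusted p = 4.44e-05). Olig3, a bHLH factor of the dorsal spinal cord, went from 0.562 and 0.271 CPM to 1.70 and 1.84 CPM (2.08 ± 0.42, adjusted p = 0.00396 by edgeR, and 2.67 without replicate 1 of the untreated libraries). Onecut2, a liver and neuronal homeobox gene, went from 2.81 and 3.19 CPM to 9.66 and 12.7 CPM (1.90 ± 0.20). For all 3 genes both libraries with auxin were above both libraries without it, which their choice as large calls in the same libraries made likely. Of the 16 tested developmental transcription factor genes with such a peak upstream, 6 rose and none fell in edgeR's test, with a median log2 fold change of 0.55; at an unadjusted p under 0.05 the counts were 7 and 1, and DESeq2 called 3 and 0 of 11. Over the whole list 21 rose and 10 fell of 76 tested. Olig1, an oligodendrocyte factor and the most highly expressed of the 16 that was not called, stood at 20.2 and 22.4 CPM without auxin and 16.3 and 17.8 CPM with it (edgeR adjusted p = 0.0524).

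The remaining large increases were of mixed function. Lrrc15, a leucine-rich repeat membrane protein, went from 2.67 and 3.05 CPM to 21.1 and 20.1 CPM (log2 fold change 2.84). Mal, a myelin and lymphocyte proteolipid, went from 0.843 and 0.339 CPM to 4.42 and 3.27 CPM (2.68). Rbm24, an RNA-binding protein of muscle, had 2 of the peaks upstream and no ChIP-seq peak from 5 kb upstream to its 3′ end, and went from 0.211 and 0.949 CPM to 2.65 and 3.33 CPM (2.35). The untreated libraries of Mal and Rbm24 differed: without replicate 1 of them the log2 fold changes were 3.46 and 1.66, and without replicate 2 that of Rbm24 was 3.78. Ube2ql1 rose by 1.87 on the log2 scale. The fitted values for 1700016D06Rik and Gpr116, an adhesion receptor gene, were 1.98 and 2.02. The call for 1700016D06Rik was lost without replicate 1 of the untreated libraries (log2 fold change 1.38), and that for Gpr116 without any 1 of the 4 libraries. DESeq2 gave neither an adjusted p. Gpr116 stood at or below 0.811 CPM in all 4 libraries.

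**Figure D5:**
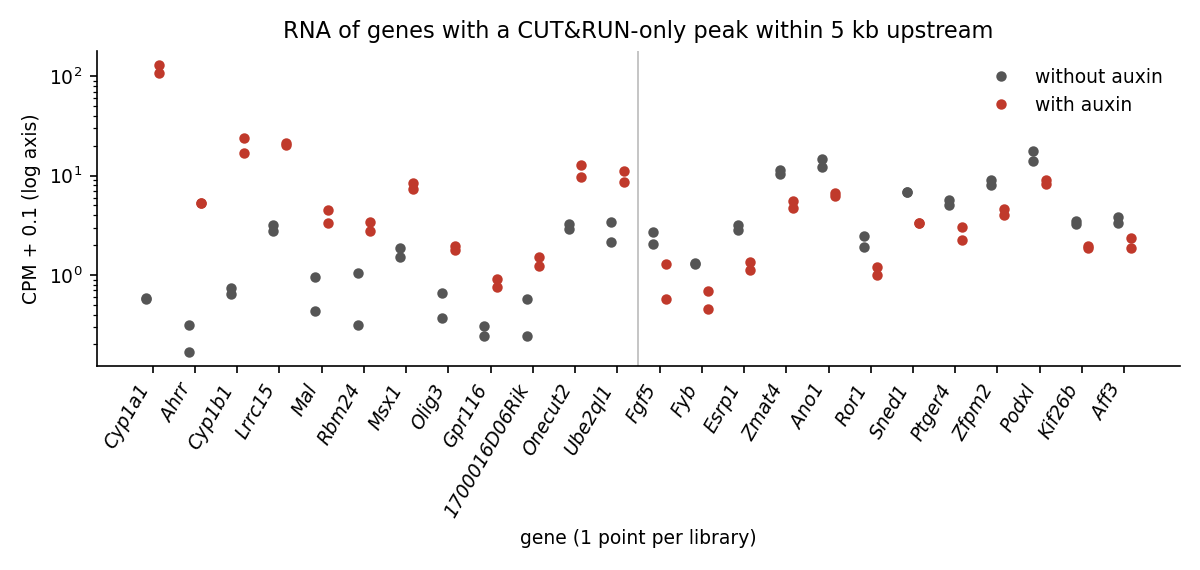
CPM (plus 0.1, log axis) in each of the 4 RNA libraries for the 12 higher and 12 lower genes with the largest log2 fold changes among tested genes with a CUT&RUN-only intergenic peak within 5 kb upstream; grey points are without auxin and red points with auxin. In each gene the 2 groups of libraries do not overlap, and Cyp1a1, Ahrr and Cyp1b1 show the widest separation. The genes were chosen by their calls in these same 4 libraries, so the separation largely follows from the choice and is no further support.

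The decreases were smaller than the increases. Fgf5, a growth factor gene of formative pluripotency, went from 1.97 and 2.58 CPM to 1.18 and 0.475 CPM, a log2 fold change of -1.51 ± 0.40 (edgeR adjusted p = 0.0163). The Fgf5 call was lost with DESeq2 (adjusted p = 0.087) and without replicate 2 of either group, and the log2 fold change was -0.94 without replicate 2 of the auxin libraries and -2.24 without replicate 1. Fyb, an adaptor protein of T cells, went from 1.19 and 1.22 CPM to 0.590 and 0.356 CPM (-1.37), and its upstream peak had a fold enrichment of 4.40. Neither gene, nor Zfpm2, a cofactor of GATA factors (-1.01), had a ChIP-seq peak from 5 kb upstream to the 3′ end. Esrp1, an epithelial splicing regulator, went from 3.09 and 2.71 CPM to 1.25 and 1.01 CPM (-1.36). Ano1, a calcium-activated chloride channel gene with a 3099 bp peak upstream, went from 14.7 and 12.2 CPM to 6.56 and 6.06 CPM (-1.09). Podxl, a sialomucin of the cell surface, went from 17.7 and 13.8 CPM to 8.18 and 8.91 CPM (-0.87). Zmat4, Ror1, Sned1, Ptger4, Kif26b and Aff3 had log2 fold changes between -1.11 and -0.78. Fyb, Ror1, Kif26b and Aff3 lost their calls when single libraries were left out: Fyb without either untreated library or replicate 2 with auxin, Ror1 without untreated replicate 1 or replicate 2 with auxin, and Kif26b and Aff3 without any 1 library. DESeq2 called none of Ror1, Kif26b and Aff3 (adjusted p = 0.215, 0.198 and 0.23) and gave Fyb no adjusted p.

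The few tested signalling genes with these peaks upstream gave edgeR calls in both directions. Fzd7, a Wnt receptor gene, went from 52.7 and 58.0 CPM to 30.9 and 34.0 CPM (log2 fold change -0.77 ± 0.09, edgeR adjusted p = 0.000112), while Fzd1 went from 0.421 and 1.15 CPM to 1.99 and 1.84 CPM (1.26 ± 0.41, adjusted p = 0.0397 by edgeR). The call for Fzd1 was lost with DESeq2 (adjusted p = 0.204) and without any of 3 of the libraries, and without replicate 1 of the untreated libraries its log2 fold change was 0.72. Of 7 tested Wnt and Frizzled genes edgeR called 1 higher and 1 lower, beside 13.0% and 14.5% of all genes, and DESeq2 called 0 and 1. Lef1, a transcription factor of the Wnt pathway, was not called at 14.5 and 12.5 CPM without auxin and 9.59 and 12.0 CPM with it. Inhbb, an activin subunit gene, went from 12.5 and 14.3 CPM to 8.18 and 8.08 CPM (-0.72), and Bmp7, a BMP ligand gene, from 14.8 and 12.8 CPM to 17.3 and 18.6 CPM (0.38), the 2 calls among 5 tested BMP and Nodal genes. Bmp7 lost its call with DESeq2 (adjusted p = 0.191) and without replicate 2 of either group. DESeq2 called 0 higher and 1 lower of 3 of these genes. Grb10, an imprinted adaptor of insulin signalling, went from 107 and 111 CPM to 70.0 and 72.0 CPM (-0.62), the 1 call among 6 tested imprinted genes. These lists are too small for their counts to be read against the shares over all genes. Of the 4 PRC1 genes, Scmh1 rose by 0.41 on the log2 scale, a call lost with DESeq2 (adjusted p = 0.143) and without replicate 1 of the untreated or replicate 2 of the auxin libraries, and Cbx2 stood at 52.1 and 56.8 CPM without auxin and 56.7 and 57.2 CPM with it.

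Few genes with a promoter window under one of these peaks could be tested. Of 18, edgeR called 1 higher and 2 lower, beside 13.0% and 14.5% of all genes. Clip4, a microtubule-binding protein gene, went from 6.74 and 7.19 CPM to 10.3 and 12.2 CPM (log2 fold change 0.70 ± 0.15, edgeR adjusted p = 0.00604). Kif26b, a kinesin family gene with the CpG-rich window, went from 3.37 and 3.19 CPM to 1.84 and 1.78 CPM (-0.85 ± 0.25). The Kif26b call was lost with DESeq2 (adjusted p = 0.198) and without any 1 of the 4 libraries. Nt5dc2 went from 64.2 and 63.3 CPM to 52.1 and 55.7 CPM (-0.24 ± 0.07, edgeR adjusted p = 0.0263). The calls for Clip4 and Nt5dc2 were not examined under the alternatives. Hoxd13, a Hox gene of the limb and hindgut, stood at 2.60 and 2.37 CPM without auxin and at 3.24 and 4.51 CPM with it, and did not pass the test (0.66 ± 0.25, edgeR adjusted p = 0.0723).

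Assigning each peak to the nearest 5′ end within 50 kb, which took in 15500 of the peaks (58.3%) and 6509 genes, gave shares to set beside the 13.0% higher and 14.5% lower over all genes. Of 2572 tested genes, 453 rose (17.6%) and 313 fell (12.2%), with a median log2 fold change of 0.08. Genes nearest to 5 or more of the peaks gave 46 higher and 31 lower of 261 (17.6% and 11.9%).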

How the data were processed

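The deposited RNA table holds raw counts per gene, which the authors made with featureCounts 1.6.3, counting exons with the reverse-strand setting, per the file headers; its gene length is the authors' exon length in bases. The submitters' processing notes name STAR 2.6.1d, Bowtie2 2.4.1, MACS2 2.1.1 and the builds mm10 and dm6. Each peak list was deposited for 1 sample, with no pooling stated, and its deposited values per broad peak are a score, a fold enrichment and the −log10 of p and of q, all from the authors' caller. The sources used here do not give the caller's control or cutoff, and chromatin depth is unknown from these lists.

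Peaks were compared by overlap of at least 1 base in Python 3.11.15 (pandas 2.3.3). Intergenic bases ran between the outermost genes or peaks of each chromosome, and position shares of bases used every 100th base. Genes placed on more than 1 chromosome or on both strands (38 of 33006) were left out. Counts were tested with edgeR 4.0.16 (TMM, default filter, two-sided quasi-likelihood test, threshold 0.05 on Benjamini-Hochberg adjusted p) after a check on simulated counts; the alternatives included DESeq2 1.42.0. CPM are counts scaled to TMM-adjusted library totals. With 2 libraries against 2, an exact permutation test cannot reach the threshold for a single gene. Replicates were further apart than counting error allows (chi-square over its degrees of freedom 3.86 without auxin and 11.1 with auxin), so each was kept as a sample. RefSeq sequences (GRCm38.p6) were used for 250 bases before each start; 84.4% of placed genes matched RefSeq by symbol or synonym. Sequence composition of the peaks themselves was not analysed here.

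The peaks, lists and alternatives were chosen with earlier results of these data known. Regions named are the 5 with the highest fold enrichment, the 5 widest, those beside the width limit and the 5 fullest gaps. Genes named are the 12 higher and 12 lower calls with the largest log2 fold change among tested genes with a peak within 5 kb upstream, and per gene list up to 4 calls by smallest p and 1 gene not called with the highest level; 1 gene that meets this rule is not reported here.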

Additional observations from a re-analysis of the deposited data

How the results depend on the processing

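The number of CUT&RUN-only intergenic peaks rests on the threshold of the deposited list. With only CUT&RUN peaks of −log10 q of at least 2, there were 3041, with a median width of 765 bp and a median fold enrichment of 3.54. Their upstream genes gave 18 higher and 8 lower, and their nearest genes 117 and 88. At a −log10 q of at least 5 there were 6, with a median width of 481.5 bp and fold enrichment of 5.17, 0 higher and 0 lower upstream genes, and 1 and 1 among the nearest genes; the 0 counts follow from the few peaks left. Excluding only peaks with 0.5 or more of their length under a ChIP-seq peak gave medians of 796 bp and 3.02, and excluding by ChIP-seq peaks of −log10 q of at least 2 gave 758 bp and 3.02. Leaving the very long spans of Fgfr2 and Gm20388 out of the gene spans, an alternative added after the data were seen, gave 26767 peaks, and counting genes with exons on both strands as placed, also added, gave 26420. Upstream windows of 1 kb and 10 kb gave 15 higher and 6 lower, and 235 and 137. The nearest 5′ end within 10 kb gave 220 and 119. The numbers of tested genes behind the counts in this paragraph are not given, so these counts cannot be set beside the shares over all genes.

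DESeq2 called fewer genes higher, 50 upstream, 229 nearest and 881 in all. The replicate block, with the replicate number as a term, gave 181 higher and 90 lower upstream, 710 and 492 nearest, and 2972 and 3177 in all. Same-numbered libraries correlated at 0.227 in their deviations from the group means, over only 2 pairs, so the libraries are taken to share only a number. Leaving out 1 library at a time gave 74 to 117 higher and 35 to 51 lower upstream genes, 315 to 457 and 193 to 292 nearest genes, and 1225 to 1705 and 1257 to 1914 genes in all. Upstream calls of an increase were fewest without replicate 1 without auxin (74) and without replicate 2 with auxin (76), and nearest and overall decreases fewest without replicate 1 without auxin (193 and 1257). With 1 library left in a group, that library is assumed to vary like the other group. Of 31 named genes called, 21 kept the call under every alternative that gave a value and 10 lost it under at least 1 of them (1700016D06Rik, Aff3, Bmp7, Fgf5, Fyb, Fzd1, Gpr116, Kif26b, Ror1 and Scmh1), and none changed direction. The causes of these changes were not tested, and a composition check on the peaks' own sequence was not run. Clip4 and Nt5dc2, named for their promoter windows, are not among the 31.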
